A study of Mus musculus with 10 samples.

Results

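The libraries of cells given DRB alone or IFN alone, with no break source added beyond the bait nuclease, were set against the untreated libraries of the same study. They were chosen by their labels: the DRB library, the IFN library, untreated library 2 from the same sequencing run, and untreated library 1 from another run as the second control, which makes 4 of 10 libraries. The study mapped the partners of 1 fixed chromosome break in cells with and without etoposide, a topoisomerase II poison, or the restriction enzyme AsiSI, and with drugs that alter transcription. All 4 libraries came from Abelson-transformed pre-B cells of the C57BL/6 strain with the LIG4-/- genotype, arrested in G1 with imatinib for 48 hours, and all expressed a zinc-finger nuclease induced with doxycycline at 1 μg/ml after 24 hours of imatinib. The DRB library came from cells given DRB, an inhibitor of transcription elongation, for which the labels state a pretreatment of 2 hours before a later break source. The IFN library is described by that abbreviation alone, with neither the type nor the dose of interferon. The untreated libraries had neither drug. The labels do not say whether the lines are single clones or whether the untreated libraries came from separate cultures, and each drug has 1 library.

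In the assay, linear-amplification-mediated translocation sequencing, a primer beside the nuclease cut (the bait) reads through the joint into whatever DNA end the bait was joined to (the prey). Cells without DNA ligase IV lack classical end joining, so their broken ends are joined by alternative pathways, often after loss of bases and at short stretches shared by both ends, called microhomology. Pre-B cells held in G1 switch on the RAG recombinase, which cuts the immunoglobulin kappa locus at the recombination signals beside its V and J segments, and these cuts are a source of prey without any added nuclease or drug. DRB blocks the kinase that releases paused RNA polymerase II, while interferons switch on a large set of antiviral genes.

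The bait cut is shown because the joints described here start from it. The kappa J and V segments most joined over the 4 libraries are shown as examples. Positions are in mm10, the sequences are the + strand as read in the deposited reads of all libraries, and gene positions are RefSeq's for GRCm38.p6, a patch of the same build. The bait lies on chromosome 6 in the T-cell receptor beta locus, 6792 bases past the end of Trbc2 and 2720 bases before the start of Trbv31. In the first line capitals mark the side beyond the cut, and in the others they mark the recombination signal letters that were searched for, the heptamer CACTGTG on both strands and the nonamer GGTTTTTGT.
bait cut, chr6:41554934-41555013: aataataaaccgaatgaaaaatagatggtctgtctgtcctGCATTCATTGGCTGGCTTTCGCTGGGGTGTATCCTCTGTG
Igkj1 with the signal before it, chr6:70722522-70722599: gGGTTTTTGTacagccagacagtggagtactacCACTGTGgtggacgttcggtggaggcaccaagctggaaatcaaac
Igkv6-32 end with the signal before it, chr6:70074010-70074090: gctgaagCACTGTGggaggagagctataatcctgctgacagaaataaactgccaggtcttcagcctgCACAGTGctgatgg
Among 32851 RefSeq promoter windows, 1.70% held the heptamer and 0.131% the nonamer on either strand in their first 81 bases. In Igkv6-32, the heptamer CACTGTG abuts the segment, and the later CACAGTG is a further match inside it.

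The DRB library held 3629 junctions on chromosomes 1 to 19 and X, the IFN library 4278, untreated library 2 6326 and untreated library 1 2038. Rows elsewhere were left out, none of them in the DRB library and 4, 6 and 6 in the IFN library, untreated library 2 and untreated library 1. The untreated libraries stood apart from each other. The median prey alignment was 62 bp in the DRB library and 69.5 bp in the IFN library, against 67 bp in untreated library 2 and 234 bp in untreated library 1. A window of 20 kb (chr2:98660000-98679999) held 2 other prey junctions in the DRB library and 1 in the IFN library, against 0 in untreated library 2 and 80 of 677 in untreated library 1. Of the near-bait junctions, 38.7% in the DRB library and 36.9% in the IFN library were identical in position, strand, bait end and overlap to a junction of another of these libraries, against 29.2% in untreated library 2 and 43.7% in untreated library 1. Of the kappa junctions, 6.25% in the DRB library and 5.77% in the IFN library were so shared, against 3.94% in untreated library 2 and 2.95% in untreated library 1. Each p-value below compares a pair of libraries, not conditions, and covers counting error only, since each drug has 1 library. The files give no molecular identifiers, so it cannot be told whether repeat or shared rows are separate events. The tests count each row as 1 event. Differences are given against untreated library 2, and untreated library 1 shows how far untreated libraries differed. DRB and IFN share that control, so their differences from it are not independent.

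The bait end was joined to DNA within 1 Mb of the cut more often in the DRB library than in untreated library 2, and less often to the kappa locus. For IFN neither difference passed after adjustment over the 30 share tests. The near-bait share was 86.5% in the DRB library (95% exact binomial interval 85.4 to 87.6) and 84.9% in the IFN library (83.7 to 85.9), against 83.4% in untreated library 2 (82.4 to 84.3) and 55.2% in untreated library 1 (53.0 to 57.3). Both drug libraries lay above both untreated libraries. The DRB library exceeded untreated library 2 by 3.17 percentage points (95% interval 1.71 to 4.60, Fisher's exact test, two-sided, Benjamini-Hochberg adjusted p = 0.000231). The IFN library differed by 1.50 points (0.0743 to 2.90, Fisher's exact test, adjusted p = 0.136). The gap between the untreated libraries was far wider than either, with a difference of -28.2 points for untreated library 1 minus untreated library 2. With junctions identical between libraries of the run left out, the DRB difference was 1.85 points and no longer passed (Fisher's exact test, adjusted p = 0.347). With all positions found in more than 1 library left out it was -2.91 points (Fisher's exact test, adjusted p = 0.434). The last step removed 83.8% of near-bait junctions in the DRB library and 75.8% in untreated library 2. Of kappa junctions it removed 12.5% and 8.76%. Whether this unequal removal moved the difference was not tested.

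The kappa share of all junctions was 8.82% in the DRB library (7.91 to 9.79), 10.1% in the IFN library (9.23 to 11.1), 10.8% in untreated library 2 (10.1 to 11.6) and 11.6% in untreated library 1 (10.3 to 13.1). Here the untreated libraries were close, and both drug libraries lay below both of them. The kappa share fell by 2.01 points in the DRB library relative to untreated library 2 (Fisher's exact test, adjusted p = 0.00977), and the call was lost when prey alignments under 50 bases were left out (adjusted p = 0.0540) and when junctions identical within the run were left out (-1.22 points, adjusted p = 0.457, Fisher's exact test in both). With all positions found in more than 1 library left out, the DRB difference was 1.78 points. That step removed a far larger part of near-bait than of kappa junctions, and whether this moved the difference was not tested. The near-bait, kappa and other prey shares add up to the whole of a library, so they do not move independently. The IFN difference was -0.707 points (-1.88 to 0.491, Fisher's exact test, adjusted p = 0.556). Other prey made up 4.66% of junctions in the DRB library and 5.03% in the IFN library, against 5.82% in untreated library 2 and 33.2% in untreated library 1. The differences from untreated library 2 were -1.16 points for DRB and -0.792 points for IFN, and neither passed the adjustment (Fisher's exact test, adjusted p = 0.0622 and 0.247).

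Set against near-bait junctions, prey of both kinds was lower in the DRB library than in untreated library 2. Per 1000 near-bait junctions there were 102 kappa and 53.8 other prey junctions in the DRB library, 119 and 59.2 in the IFN library, 130 and 69.8 in untreated library 2, and 211 and 602 in untreated library 1. The DRB to untreated library 2 ratio was 0.784 for kappa (0.682 to 0.902) and 0.771 for other prey (0.639 to 0.930). The IFN ratio was 0.918 for kappa (0.808 to 1.04) and 0.849 for other prey (0.714 to 1.01). Within prey, the kappa part was 65.4% in the DRB library, 66.8% in the IFN library, 65.1% in untreated library 2 and 25.9% in untreated library 1. Neither drug library passed against untreated library 2 (Fisher's exact test, adjusted p = 1.000 and 0.770). The interval of that difference was -4.77 to 5.41 points for DRB and -2.90 to 6.35 points for IFN.

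**Figure D1:**
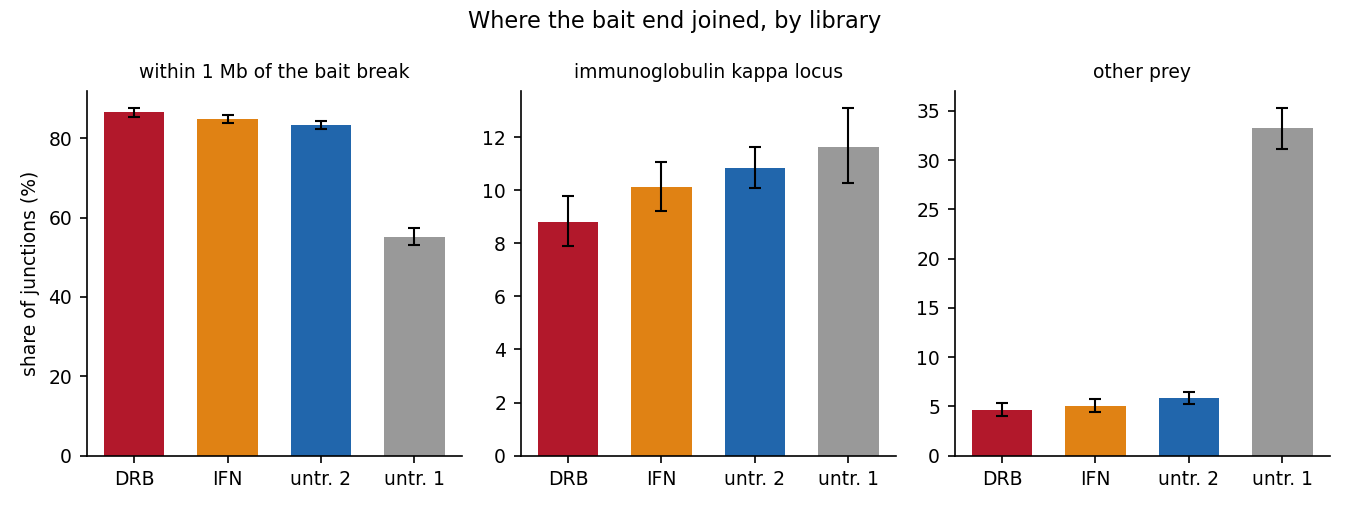
Share of junctions (%, bars, axes from 0) within 1 Mb of the bait cut, in the kappa locus and at other prey, in the DRB, IFN, untreated 2 and untreated 1 libraries, with 95% exact binomial intervals as error bars. The DRB bar is the highest near the bait at 86.5% and the lowest in the kappa locus at 8.82%, and untreated library 1 stands apart with 33.2% other prey.

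Junctions near the bait lay closer to the cut in both drug libraries than in untreated library 2. Most of them read on in the reference direction beyond the cut, the geometry of an end rejoined with a deletion: 85.6% of near-bait junctions in the DRB library and 86.0% in the IFN library were downstream on the + strand, against 85.4% in untreated library 2 and 87.0% in untreated library 1. The median distance of these junctions from the cut was 290 bases in the DRB library and 322 bases in the IFN library, against 431 bases in untreated library 2 and 375.5 bases in untreated library 1. Within 200 bases lay 48.5% of them in the DRB library and 46.8% in the IFN library, against 41.3% in untreated library 2 and 37.4% in untreated library 1. Both drug libraries were above both untreated ones by this measure, which was added and not tested. Within 1000 bases lay 78.2% for DRB and 76.7% for IFN, against 72.5% in untreated library 2 and 84.8% in untreated library 1.

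Over all near-bait junctions, 25.4% in the DRB library (23.9 to 27.0) and 26.4% in the IFN library (25.0 to 27.9) lay over 1 kb from the cut, against 30.7% in untreated library 2 (29.4 to 31.9) and 16.3% in untreated library 1 (14.2 to 18.6). Against untreated library 2 this share fell by 5.22 points in the DRB library (interval -7.17 to -3.24, Fisher's exact test, adjusted p = 8.52e-06). It fell by 4.27 points in the IFN library (interval -6.16 to -2.37, Fisher's exact test, adjusted p = 0.000181). Both drug libraries lay between the untreated libraries, and against untreated library 1 the sign turned, to 9.16 points for DRB and 10.1 points for IFN. With junctions identical between libraries of the run left out, the differences were -3.83 points for DRB and -3.45 points for IFN (Fisher's exact test, adjusted p = 0.0636 and 0.0690). That step removes a larger part of the smaller libraries near the bait, and whether this moved the differences was not tested. With a limit of 10 kb in place of 1 kb they were 0.0863 and -0.0419 points, and neither passed. With all positions found in more than 1 library left out, they were 1.04 points for DRB and -1.09 points for IFN (Fisher's exact test, adjusted p = 0.839 and 0.816). This step too removed a larger part of the drug libraries than of untreated library 2 near the bait, with the same limit. Against both untreated libraries pooled, the IFN difference was -1.75 points and no longer passed (Fisher's exact test, adjusted p = 0.157).

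The shift ran through most subsets. Among near-bait junctions with prey alignments of 60 bases or more, 24.4% lay over 1 kb away in the DRB library and 25.8% in the IFN library, against 29.7% in untreated library 2 and 16.2% in untreated library 1. Under 60 bases the shares were 26.5% for DRB, 27.2% for IFN, 32.0% for untreated library 2 and 17.4% for untreated library 1. Among those with a bait end trimmed by 10 bases or less, the shares were 30.5% for DRB and 38.1% for IFN, against 36.4% in untreated library 2 and 22.5% in untreated library 1, so IFN was not below untreated library 2 there. Junctions at 1 to 2 kb downstream on the + strand made up 11.6% in the DRB library and 10.5% in the IFN library, against 13.1% in untreated library 2 and 4.91% in untreated library 1. At 2 to 5 kb the shares were 9.45% in the DRB library, 11.4% in the IFN library, 12.9% in untreated library 2 and 9.20% in untreated library 1. Beyond 20 kb of the cut, in either direction, there were 9 near-bait junctions in the DRB library and 8 in the IFN library, against 10 in untreated library 2 and 5 in untreated library 1.

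**Figure D2:**
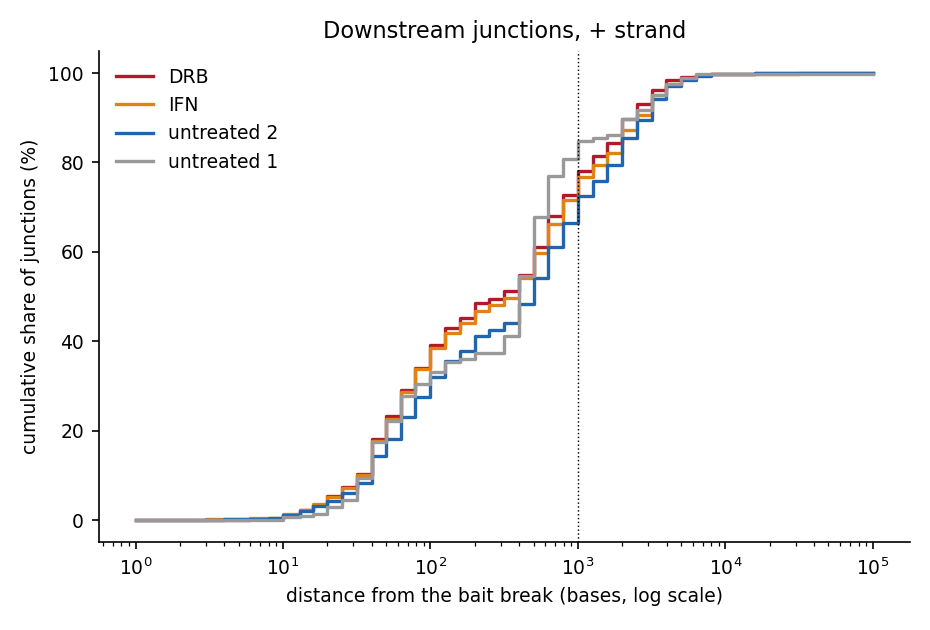
Cumulative share (%) of downstream + strand junctions against distance from the bait cut (bases, log axis), 1 line per library, with a dotted line at 1 kb. The DRB and IFN lines run above that of untreated library 2 from under 100 bases to several kb, and the untreated 1 line crosses them.

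The orientation of near-bait junctions passed in neither comparison. The + orientation made up 87.2% in the DRB library and 87.6% in the IFN library, against 87.2% in untreated library 2 and 92.3% in untreated library 1. The differences from untreated library 2 were -0.0394 points for DRB (-1.54 to 1.42) and 0.339 points for IFN (-1.08 to 1.73). With all positions found in more than 1 library left out, the DRB difference was -8.05 points and passed (Fisher's exact test, adjusted p = 0.0283), and the IFN difference was -3.42 points and did not (adjusted p = 0.436).

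In the kappa locus, which runs over chr6:67555636-70726754, both V and J segments were joined in every library. No junction fell in the immunoglobulin heavy, lambda, T-cell receptor alpha/delta or T-cell receptor gamma segments in the DRB library, the IFN library or untreated library 2, and untreated library 1 had 1 in lambda and 1 in alpha/delta. Junctions within 1 kb of a V or J segment made up 64.1% of kappa junctions in the DRB library and 61.7% in the IFN library, against 65.7% in untreated library 2 and 68.8% in untreated library 1. The + strand share was 47.5% in the DRB library and 46.9% in the IFN library, against 49.8% in untreated library 2 and 47.3% in untreated library 1. The distal part of the locus, the side away from the J segments and toward the bait, held 51.9% in the DRB library, 52.4% in the IFN library, 52.8% in untreated library 2 and 55.3% in untreated library 1. None of these kappa shares that were tested passed in either comparison.

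J segments took 20 of 320 kappa junctions in the DRB library (6.25%) and 30 of 433 in the IFN library (6.93%), against 31 of 685 in untreated library 2 (4.53%) and 21 of 237 in untreated library 1 (8.86%). Both drug libraries lay between the untreated ones (Fisher's exact test against untreated library 2, adjusted p = 0.560 for DRB and 0.284 for IFN). Igkj1, the most upstream J segment, had 12 junctions in the DRB library and 13 in the IFN library, against 14 in untreated library 2 and 10 in untreated library 1. Igkj2 had 4 in the DRB library and 7 in the IFN library, against 4 and 3 in untreated libraries 2 and 1. Igkj5 had 2 in the DRB library and 4 in the IFN library, against 12 and 4 in untreated libraries 2 and 1. Igkj4 had 1 in the DRB library and 5 in the IFN library, against 0 and 3 in untreated libraries 2 and 1. Igkj3, a nonfunctional segment in mice, had 1 in each library. Relative to the heptamer shown above, Igkj1 junctions were on the signal side, reading away from the segment, in 9 cases and on the segment side in 3 in the DRB library. The IFN library had 10 and 3, untreated library 2 had 14 and 0, and untreated library 1 had 6 and 4. These counts were too small for an order among the libraries.

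Of 162 annotated V segments, 90 had a junction in at least 1 of the 4 libraries: 48 in the DRB library, 56 in the IFN library, 72 in untreated library 2 and 49 in untreated library 1. The 12 V segments with the most junctions held 41.2% of kappa junctions in the DRB library and 35.1% in the IFN library, against 42.0% in untreated library 2 and 34.6% in untreated library 1. Of 25 segments tested for DRB, 0 passed after adjustment (percent called 0) and 2 had an unadjusted p under 0.05. Of 28 tested for IFN, 0 passed (percent called 0) and 2 had an unadjusted p under 0.05.

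Igkv6-32, which is inverted so that its signal lies at its left end in the sequence above, was the most joined segment over the 4 libraries together. In the IFN library Igkv11-125 (24) and Igkv11-114 (21) had more junctions, and in untreated library 1 Igkv9-124 (15), Igkv9-123 (11) and Igkj1 (10) did. Igkv6-32 had 28 junctions in the DRB library (8.75% of kappa) and 18 in the IFN library (4.16%), against 60 in untreated library 2 (8.76%) and 9 in untreated library 1 (3.80%). The DRB share was close to that of untreated library 2, and the IFN share to that of untreated library 1. The tests of single segments were made on shares of all prey, not of kappa junctions. By that share, IFN did not pass against untreated library 2 (Fisher's exact test, p = 0.00572, adjusted p = 0.111). The ends at Igkv6-32 split into 7 on the signal side and 14 on the segment side in the DRB library, 9 and 7 in the IFN library, 14 and 34 in untreated library 2, and 0 and 5 in untreated library 1. The other ends lay on these sides in the opposite orientation.

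Igkv11-125 had 12 junctions in the DRB library and 24 in the IFN library, against 51 in untreated library 2 and 9 in untreated library 1. As a share of kappa that was 3.75% for DRB and 5.54% for IFN, against 7.45% in untreated library 2 and 3.80% in untreated library 1. As a share of all prey, DRB did not pass against untreated library 2 (Fisher's exact test, p = 0.0271, adjusted p = 0.338). Igkv11-114, annotated as a pseudogene, ran the other way, with 5.00% of kappa junctions in the DRB library and 4.85% in the IFN library, against 2.77% in untreated library 2 and 0.422% in untreated library 1. Both drug libraries were above both untreated ones there, but neither comparison, made on shares of all prey, passed (Fisher's exact test, adjusted p = 0.678 and 0.408). Igkv9-123 was level, with 4.69% for DRB and 3.93% for IFN, against 4.53% and 4.64% in untreated libraries 2 and 1. Igkv8-34 had 3.75% for DRB and 3.46% for IFN, against 5.26% and 1.69%. Igkv9-124 had 5 junctions in the DRB library and 4 in the IFN library, against 10 in untreated library 2 and 15 in untreated library 1. The other 6 of the 12 most joined V segments (Igkv1-117, Igkv10-95, Igkv19-93, Igkv17-127, Igkv6-25 and Igkv8-30) had 4 to 14 junctions in each drug library and 3 to 21 in each untreated library.

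**Figure D3:**
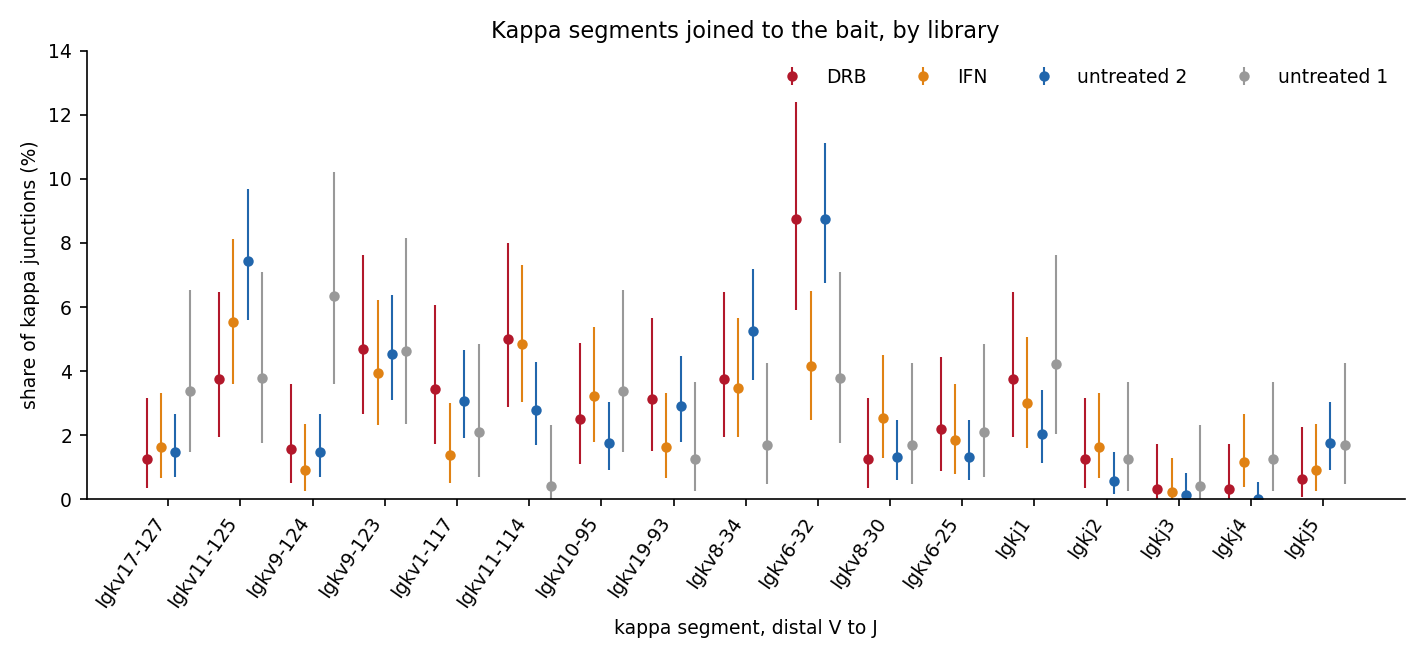
Share of kappa junctions (%) within 1 kb of the 12 most joined V segments and the 5 J segments, in order from distal V to J, with 95% exact binomial intervals, for the DRB, IFN, untreated 2 and untreated 1 libraries. The intervals of the libraries overlap at most segments, and at Igkv6-32 the IFN library (4.16%) lies below the DRB library and untreated library 2.

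Counted in 20-kb windows over the genome, with near-bait junctions left out, 0 of 39 windows passed for DRB (percent called 0, 1 with an unadjusted p under 0.05). For IFN, 1 of 44 windows passed (percent called 2.27). That window, chr6:70060000-70079999, holds Igkv6-32. It had 35 junctions in the DRB library and 24 in the IFN library, against 86 in untreated library 2 and 14 in untreated library 1. As a share of prey that was 7.16% for DRB and 3.70% for IFN, against 8.17% in untreated library 2 and 1.53% in untreated library 1. The IFN value fell below that of untreated library 2 (Fisher's exact test, adjusted p = 0.0101) and lay above that of untreated library 1. As a share of kappa junctions it was 10.9% for DRB and 5.54% for IFN, against 12.6% and 5.91% in untreated libraries 2 and 1. The window was no longer called with prey alignments of at least 50 bases, with no minimum number of junctions, or with windows of 100 kb.

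An example of a joint found in every library of the run shows how the overlap at a junction was read. It joins the bait to chr6:68164413 on the - strand, 46 bases outside Igkv11-114. Each line runs from the bait into the prey, and capitals mark the 5 bases that could have come from either end.
DRB joint: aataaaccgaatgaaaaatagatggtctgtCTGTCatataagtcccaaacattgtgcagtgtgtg
IFN joint: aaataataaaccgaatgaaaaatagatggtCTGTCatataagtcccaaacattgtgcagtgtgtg
untreated 2 joint: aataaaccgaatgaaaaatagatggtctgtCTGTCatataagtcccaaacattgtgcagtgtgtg
The DRB joint and the untreated 2 joint have the same bait end, 2 bases short of the cut, and are identical. The IFN joint has the same prey end and the same overlap with a bait end 6 bases short of the cut.

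Joint structure differed between the drug libraries and untreated library 2 in the trimming of the bait end. A bait end trimmed by over 10 bases was found in 74.0% of prey junctions in the DRB library (69.9 to 77.9) and 75.3% in the IFN library (71.8 to 78.6), against 80.9% in untreated library 2 (78.4 to 83.2) and 62.4% in untreated library 1. Relative to untreated library 2 this share fell by 6.88 points for DRB (Fisher's exact test, adjusted p = 0.0155) and fell by 5.60 points for IFN (Fisher's exact test, adjusted p = 0.0358). Both drug libraries lay above untreated library 1. Over 50 bases as the limit, the differences were -4.81 and -4.23 points and no longer passed (Fisher's exact test, adjusted p = 0.215 and 0.244). With junctions identical within the run left out they were -6.74 and -5.33 points (Fisher's exact test, adjusted p = 0.0636 and 0.0738). The difference stood mainly at kappa junctions, where the shares were 70.3% for DRB and 70.4% for IFN, against 78.1% in untreated library 2 and 70.0% in untreated library 1. At other prey they were 81.1% for DRB and 85.1% for IFN, against 86.1% and 59.7%. Near the bait they were 88.0% for DRB and 87.4% for IFN, against 88.3% and 82.2%.

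Of the measures of microhomology and insertion, an overlap of 4 or more bases and the presence of inserted bases were tested, and neither passed against untreated library 2. Among prey joints without inserted bases, an overlap of 4 or more bases was found in 35.0% for DRB and 39.5% for IFN, against 34.1% in untreated library 2 and 31.1% in untreated library 1. The IFN library was above both untreated libraries by this measure but did not pass (5.35 points, 0.352 to 10.4, Fisher's exact test, p = 0.0409, adjusted p = 0.136), and with a limit of 2 bases the IFN difference was -1.71 points. At 4 or more bases the IFN difference passed against untreated library 1 (8.40 points, Fisher's exact test, adjusted p = 0.00279) and against both untreated libraries pooled (6.75 points, Fisher's exact test, adjusted p = 0.0114). In kappa joints alone the shares were 36.0% for DRB, 43.3% for IFN, 37.1% for untreated library 2 and 36.6% for untreated library 1. The median overlap was 3 bases at kappa joints in all 4 libraries and 2 bases near the bait. Inserted bases were found in 11.9% of prey junctions in the DRB library and 11.3% in the IFN library, against 12.1% in untreated library 2 and 14.4% in untreated library 1. Near the bait they were more frequent in all 4 libraries, at 20.8% for DRB and 19.5% for IFN, against 20.0% and 16.1%. Bait ends that ran past the cut were found in 9.47% of other prey junctions for DRB and 6.98% for IFN, against 6.25% in untreated library 2 and 26.1% in untreated library 1.

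**Figure D4:**
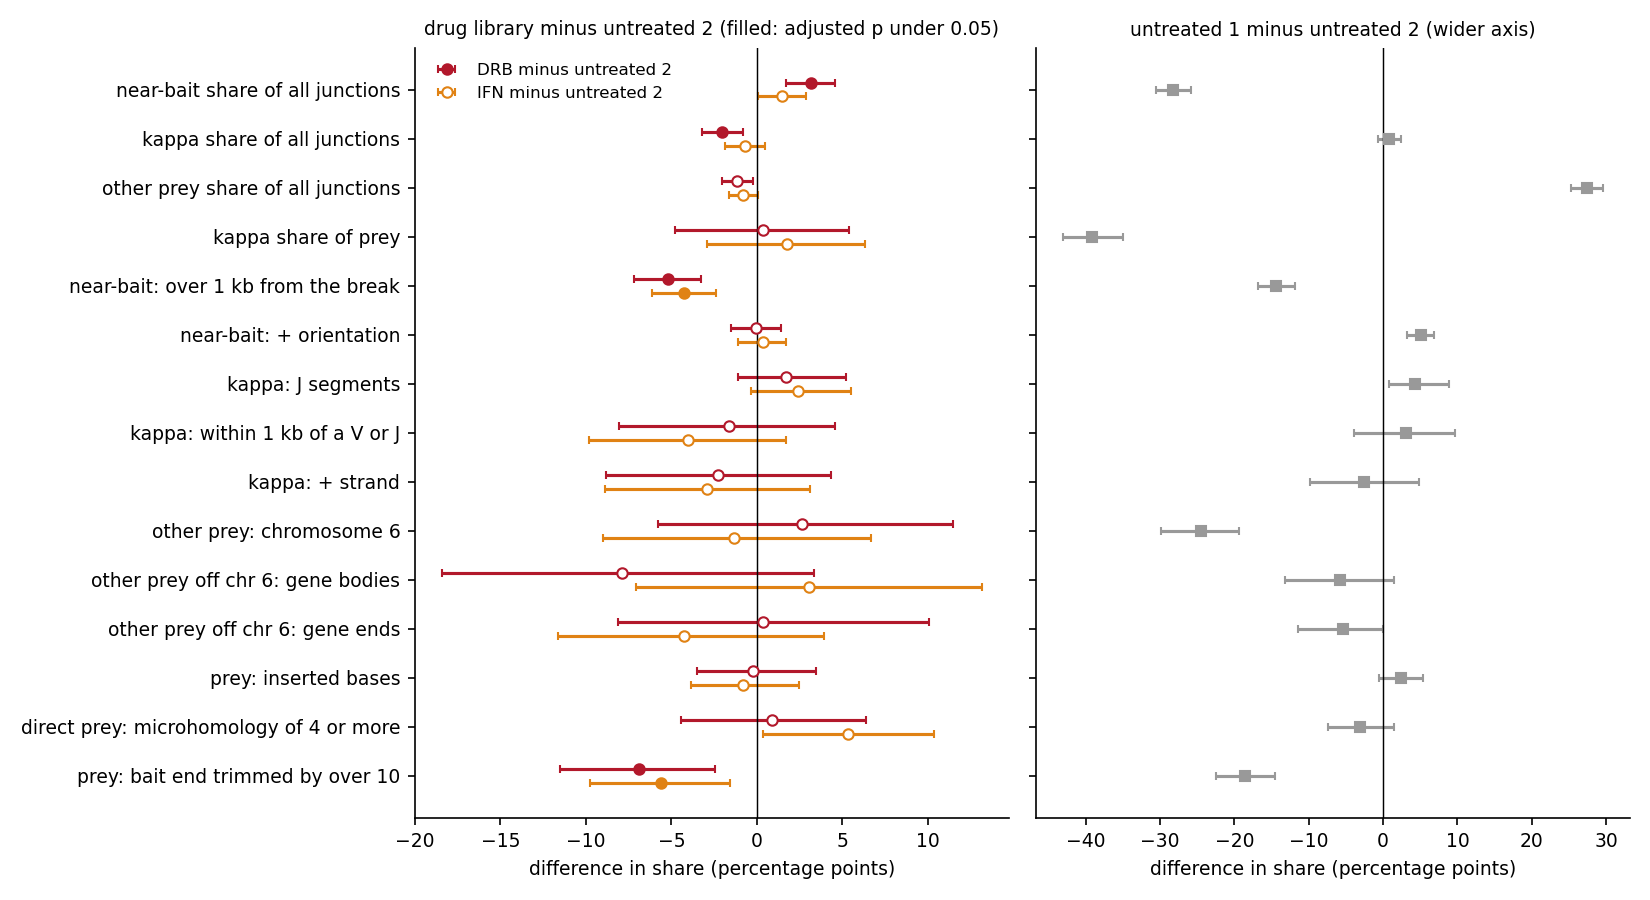
Differences in share (percentage points) with 95% intervals: DRB and IFN minus untreated 2 in the left panel, where filled points passed at an adjusted p of 0.05, and untreated 1 minus untreated 2 in the right panel, whose axis is wider. The called differences of the drug libraries span -6.88 to 3.17 points, and the untreated libraries differ from each other by up to 39.1 points, in the kappa share of prey.

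Other prey numbered 169 junctions in the DRB library and 215 in the IFN library, against 368 in untreated library 2 and 677 in untreated library 1. Chromosome 6, which carries the bait, held 36.1% of them in the DRB library and 32.1% in the IFN library, against 33.4% in untreated library 2 and 8.86% in untreated library 1. Off chromosome 6, junctions inside protein-coding genes made up 37.0% for DRB and 47.9% for IFN, against 44.9% in untreated library 2 and 39.1% in untreated library 1, while 39.0% of the annotated length lies in such genes. Within 5 kb of a gene end were 20.4% for DRB and 15.8% for IFN, against 20.0% and 14.6%, with 12.3% of the annotated length there. DRB was on the low side and IFN on the high side of untreated library 2 for gene bodies, by -7.86 points (-18.4 to 3.35) and 3.05 points (-7.07 to 13.1), and neither passed (Fisher's exact test, adjusted p = 0.459 and 0.812). The intervals were wide, since these shares rest on 108 junctions for DRB and 146 for IFN, against 245 in untreated library 2.

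Outside the antigen receptor loci, Foxp1 was the gene joined most. It lies on the bait chromosome (chr6:98925342-99522746) and encodes a forkhead factor needed in early B-cell development. It had 10 junctions in the DRB library and 14 in the IFN library, against 27 in untreated library 2 and 3 in untreated library 1. As a share of other prey that was 5.92% for DRB and 6.51% for IFN, against 7.34% in untreated library 2 and 0.443% in untreated library 1. Of 4 genes with enough junctions to test for DRB and 3 for IFN, 0 passed in either (percent called 0 for each, and 0 with an unadjusted p under 0.05). Genes were tested as shares of all prey, kappa junctions included. At Foxp1 the adjusted p was 0.795 for DRB and 0.715 for IFN (Fisher's exact test). Zfp956, a zinc-finger gene, was counted with 2 kb on either side, as were the other genes tested. It had 4 junctions in the DRB library and 5 in the IFN library, against 3 and 0 in untreated libraries 2 and 1. All of those in the DRB library and untreated library 2 lay just outside the gene, at site B below, as did 2 in the IFN library. Gtf3c4, a subunit of the RNA polymerase III factor TFIIIC, had 0 and 2 in the DRB and IFN libraries, against 5 and 0 in untreated libraries 2 and 1. Eif2ak3, the endoplasmic reticulum stress kinase PERK, had 1 in the DRB library and 4 in untreated library 2. Cntnap2, Ikzf1, Narf, Arc and Ccser1, also among the most joined genes, had 3 or 4 junctions each over all 4 libraries.

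Genes tied to the known actions of the drugs were counted as lists, as were immediate-early, B-lineage and long neural genes. The long neural genes cover 43.3 Mb, and each of the other lists at most 2.58 Mb. Of 50 interferon-stimulated genes, 47 were found in the annotation, and over 1.11 Mb they had 1 junction in the DRB library (Herc6), 0 in the IFN library, 2 in untreated library 2 (Parp11 and Ifih1) and 1 in untreated library 1 (Parp11). With 215 other prey junctions and 1.11 Mb of sequence, a count of 0 in the IFN library gives no order against these counts. The list of 25 immediate-early genes, which respond to stimuli within minutes to hours, had 1 junction in all (Nr4a1, in the DRB library). Arc, also an immediate-early gene but not in that list, had 1 in the DRB library and 0 in the IFN library, against 2 and 0 in untreated libraries 2 and 1. The 30 genes of transcription elongation, the step DRB blocks, had 0 junctions in every library. The 30 B-lineage genes had 10 junctions in the DRB library and 15 in the IFN library, against 28 and 6 in untreated libraries 2 and 1. Nearly all were at Foxp1, with 4 at Ikzf1 and 1 at Btk. The 30 long neural genes had 3 in the DRB library and 6 in the IFN library, against 8 and 11 in untreated libraries 2 and 1. That was 1.78% and 2.79% of other prey against 2.17% and 1.62%, and these shares were not set against the length of the genes.

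Of the windows of 20 kb outside the kappa locus, 13 had at least 4 junctions over the 4 libraries, the tenth place being shared by 4 of them. Of these 13, 5 lay in Foxp1 and 1 held the chromosome 2 excess of untreated library 1. The window chr6:120600000-120619999 had 7 junctions in the DRB library and 4 in the IFN library, against 8 in untreated library 2 and 3 in untreated library 1. The window chr6:47940000-47959999, with Zfp783 and Zfp956, had 4 and 5 in the DRB and IFN libraries, against 3 and 0 in untreated libraries 2 and 1. The window chr6:70740000-70759999, just beyond the kappa constant region, had 4 and 2 in the DRB and IFN libraries, against 4 and 0. The window chr14:19400000-19419999 had 0 junctions in both drug libraries and in untreated library 2, and 9 in untreated library 1. The window chr9:35300000-35319999, with Gm33838 and Gm33974, likewise had 0 junctions in both drug libraries and in untreated library 2, and 4 in untreated library 1. The windows with Gtf3c4 and with Narf made up the rest.

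At 4 places, chosen after their values were seen, the junctions of a window gathered around 1 point with - strand ends on its left and + strand ends on its right. The 30 bases on either side of each gap are shown, since the bases between were not read from both ends.
site A left, chr6:120611758-120611787: cgtgacaagccctttcatgtgtttttctgt
site A right, chr6:120611801-120611830: ctggcgtagaaatatgctatgatctaaacc
site B left, chr6:47953283-47953312: aacgctagcgaacgctatgcagcttgtgct
site B right, chr6:47953343-47953372: accgtcaggggcggaacctccagggctagc
site C left, chr2:28835262-28835291: ccttcccctcggggttgaacatcctgtcta
site C right, chr2:28835300-28835329: gtctggctgatggtggggtctttagaggaa
site D left, chr11:121237676-121237705: agtggagaaggaataaagggcaggcaggcc
site D right, chr11:121237742-121237771: acagctgcctcacttgccttcacacgtgat
Site A lies between genes, 54520 bases from Cecr2, the nearest protein-coding gene. Site B lies in Zfp783 62.5 bases outside Zfp956, site C in Gtf3c4 and site D in Narf. Site A had 6 junctions in the DRB library and 3 in the IFN library, against 7 in untreated library 2 and 2 in untreated library 1. Site B had 4 and 2 in the DRB and IFN libraries, against 3 and 0 in untreated libraries 2 and 1. Site C had 0 and 1 in the DRB and IFN libraries, against 4 and 0, and site D had 1 and 0, against 3 and 0. Sites A and B were thus joined in both drug libraries and in untreated library 2, and the counts allow no order among them. The innermost ends of these 4 libraries set the limits of each side, so the clean split of their ends was fixed in advance. Ends outside this arrangement in the AsiSI library numbered 0 of 14 at site A and 2 of 2 at site B. At sites C and D they numbered 0 of 7 and 4 of 6. With DRB and AsiSI they numbered 2 of 17, 3 of 6, 1 of 6 and 8 of 12 at sites A to D.

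**Figure D5:**
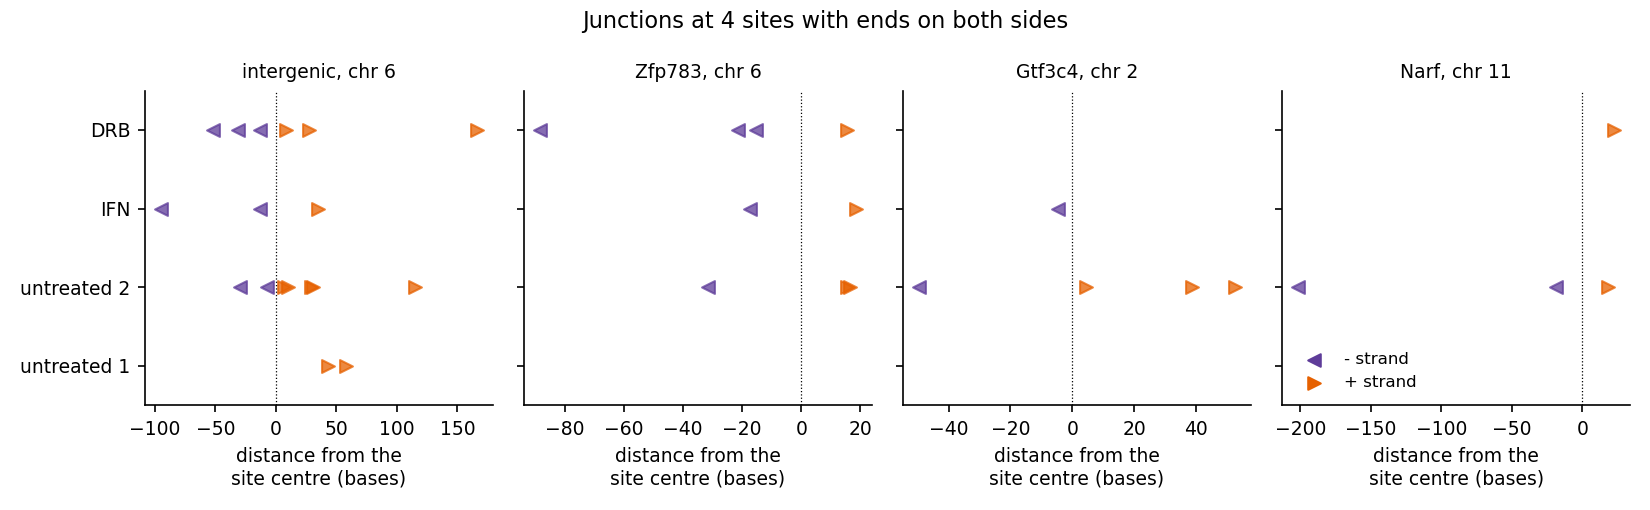
Junctions at the 4 sites by distance from the site's centre (bases), 1 row per library with DRB at the top, then IFN, untreated 2 and untreated 1; leftward triangles are - strand ends and rightward triangles + strand ends. The centre is midway between the innermost - and + strand ends of these 4 libraries. The split of their ends at it therefore follows from how the sites and centres were chosen.

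DRB and IFN were also set against each other. Of 15 shares tested between the DRB and IFN libraries, 0 passed after adjustment over the 15 (Fisher's exact test, smallest adjusted p = 0.375), and 2 had an unadjusted p under 0.05, the near-bait share (1.67 points, 0.120 to 3.21) and the kappa share (-1.30 points, -2.59 to -0.00431). With 1 library per drug, a difference between libraries and an effect of the drug cannot be told apart.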

How the data were processed

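Genomic DNA of 4 libraries was read as translocation junctions on the MiSeq platform. The authors deposited 1 row per junction, giving where its prey lies, on which strand, the read and how bait and prey align to it, per the file headers. No region was counted and nothing was normalized before deposit, so the unit is a junction. Per the labels' protocols the assay's standard pipeline was used, the submitters' processing notes name bedtools, mm10 and GRCm38.p2, and the aligner is not given in the sources used here. Repeat rows were kept (158 in the DRB library, 179 in the IFN library, 284 in untreated library 2 and 37 in untreated library 1).

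From the rows, shares of junctions were computed for near-bait (within 1 Mb of chr6:41554973), kappa locus and other prey. Overlap is the number of bases shared by the bait and prey alignments in the read, and trimming is the distance of the bait end from the cut. Pairs of libraries were tested by the two-sided Fisher's exact test (scipy 1.17.1), with exact Clopper-Pearson intervals at 95%, Newcombe intervals for differences and Benjamini-Hochberg adjustment over 30 tests. Segments took in junctions within 1 kb, and genes took in those inside them or within 2 kb. Segments, genes and 20-kb windows with at least 5 junctions over the pair were tested against the rest of the prey. The threshold was an adjusted p of 0.05. The tests were tried on simulated data with known changes, and no result here rests on that trial. For features, the simulated rest of each library was larger than in the tests reported.

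Runs were read from the read names: the DRB, IFN and untreated 2 libraries share 1 run. The members and gene lists were chosen with earlier results of these data known. Named genes are the 10 most joined outside receptor loci, the 12 most joined kappa V segments, all J segments, the 10 most joined windows with ties, up to 4 members of each list and any feature past its test. Alternatives changed the control library, repeat junctions, shared positions, alignment length, limits and windows, and 1 was chosen after seeing the data, leaving out junctions identical between libraries of the run. The drug doses are not used here, and 1 of the genes this rule names is not reported here.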

Additional observations from a re-analysis of the deposited data

How the results depend on the processing

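No paired analysis was possible because the DRB and IFN libraries carry no replicate number in the labels and have 1 library each. Differences here are in percentage points, drug library minus untreated. Counting identical junctions once changed none of the 36 results. Over all alternatives, 193 of the results kept their direction and side of the threshold, or stayed within the limits set for counts, and 16 counts moved beyond them. Another 37 reversed in direction, whether or not they passed. Of the results that kept their direction, 17 passed newly and 13 no longer passed. The causes of these changes were not tested. Near the bait, leaving out shared junctions removed a larger part of the drug libraries than of untreated library 2.

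The control library mattered most. With untreated library 1 as the control, the DRB and IFN differences were 9.16 and 10.1 for near-bait junctions over 1 kb, 11.7 and 12.9 for trimmed bait ends, 27.2 and 23.2 for chromosome 6, 39.5 and 40.9 for kappa in prey, -28.6 and -28.2 for other prey, -5.15 and -4.77 for + orientation, and -2.61 and -1.93 for J segments. For IFN they were 29.7 for near-bait share, 8.40 for microhomology and 1.17 for gene ends, and for DRB 0.243 for the + strand of kappa. All of these differences passed except those for J segments, gene ends and the + strand of kappa. Called windows then numbered 8 of 28 tested for DRB and 14 of 34 for IFN. Called segments numbered 5 of 21 and 3 of 25, and called genes 1 of 1 and 2 of 2. With both untreated libraries pooled, the DRB and IFN differences were 18.6 and 14.6 for chromosome 6, 18.6 and 19.9 for kappa in prey, -7.84 and -7.47 for other prey, and 1.74 and 3.02 for trimmed bait ends. For IFN they were 8.37 for near-bait share, 6.75 for microhomology, -0.559 for + orientation and -1.75 for junctions over 1 kb. Those for trimmed bait ends, + orientation and junctions over 1 kb did not pass, and the others did. Called windows were then 1 of 47 for DRB and 3 of 52 for IFN, and segments 1 of 29 and 1 of 34.

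With positions in more than 1 library left out, the DRB and IFN differences were -2.91 and -2.72 for near-bait share, 1.78 and 2.48 for kappa, 1.13 and 0.248 for other prey, 1.04 and -1.09 for junctions over 1 kb, and -8.05 and -3.42 for + orientation, of which the DRB orientation difference passed. Those for DRB were -0.132 for kappa in prey and -0.787 for gene ends, and that for IFN was -4.89 for trimmed bait ends. Of 27 segments tested for IFN, 1 was called. With junctions identical within the run left out, the DRB and IFN differences were -1.22 and 0.207 for kappa, -3.83 and -3.45 for junctions over 1 kb, and -6.74 and -5.33 for trimmed bait ends. Those for DRB were 1.85 for near-bait share, -0.148 for kappa in prey and -0.127 for gene ends. That for IFN was -0.996 for + orientation, and 1 of 28 segments was called for IFN.

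With prey alignments of at least 50 bases, the DRB and IFN differences were -2.02 and 0.260 for kappa. Those for DRB were -0.791 for microhomology and 0.355 for + orientation. That for IFN was 0.340 for chromosome 6, and 0 of 36 windows were called for IFN. A limit of 10 kb in place of 1 kb gave 0.0863 and -0.0419, overlaps of 2 or more bases -1.37 and -1.71, and trimming over 50 bases -4.81 and -4.23. Gene ends within 2 kb gave -0.0189 for DRB, segments within 200 bases 1.70 for IFN, and a near-bait limit of 100 kb -1.21 for other prey in DRB. For IFN, 0 windows were called with no minimum or with 100-kb windows, and 1 segment with near-bait junctions as the rest of the table.

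Depth limits the prey results: other prey rests on 169 to 677 junctions a library, and 4 genes for DRB and 3 for IFN met the minimum for a test. A library with no junction at a feature allows up to 0.613% of prey for DRB and 0.463% for IFN, against 0.285% and 0.328% in untreated libraries 2 and 1 (3 counts).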

Other observations

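Long overlaps of 10 or more bases between bait and prey were found in 7 of 145 direct joints to other prey in the DRB library (4.83%) and 9 of 194 in the IFN library (4.64%), against 5 of 317 in untreated library 2 (1.58%) and 59 of 558 in untreated library 1 (10.6%). Both drug libraries lay between the untreated libraries, and this measure was added after the data were seen and was not tested. At kappa joints the same share was 2.80% for DRB and 3.15% for IFN, against 1.81% and 2.23%, and near the bait it was 0.442% for DRB and 0.274% for IFN, against 0.332% and 0. Blunt joints, with neither overlap nor inserted bases, made up 21.4% of direct joints to other prey for DRB and 21.6% for IFN, against 19.6% in untreated library 2 and 31.2% in untreated library 1. They were rarer at kappa joints in all 4 libraries, at 6.29% for DRB and 5.25% for IFN, against 5.09% and 6.70%.

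On the upstream side of the bait, junctions on the - strand, which would join the bait to its own side in the opposite direction, made up 7.83% of near-bait junctions for DRB and 8.07% for IFN, against 8.36% in untreated library 2 and 4.98% in untreated library 1. Their median distance from the cut was 1333.5 bases for DRB and 1379 bases for IFN, against 1400 bases in untreated library 2 and 383 bases in untreated library 1. The medians of the run's libraries were close. The lower quartiles were 280.75 bases for DRB and 379 bases for IFN, against 439 bases in untreated library 2 and 250.5 bases in untreated library 1. Both drug libraries thus lay nearer the cut than untreated library 2 by these values, as on the downstream side. They rest on 246, 293, 441 and 56 junctions in the DRB, IFN, untreated 2 and untreated 1 libraries, and no test was made. Off chromosome 6, other prey on chromosome 4 numbered 1 junction for DRB and 10 for IFN, against 8 and 27 in untreated libraries 2 and 1. On chromosome 19 it was 1 for DRB and 1 for IFN, against 12 and 14. These chromosomes were picked after their counts were seen, and no test was made.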
